A study of Mus musculus with 9 samples.

Results

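Abca3, Lpcat1, Ctsh, Foxa1 and Etv5 are genes of lung epithelial identity and of surfactant production, and their RNA was followed across 3 mouse tumour lines grown in culture. They were chosen by name, as 5 of the 11046 genes in a table of read counts, and all 5 were among the 11037 genes tested. Abca3, Ctsh and Foxa1 were highest in 482N1, the line labelled as lung cancer, in every library. Etv5 was highest in 482N1 too, but E0771-BrM, the line labelled as breast cancer, held 65.1% of that level. Lpcat1 was highest in E0771-BrM and, of the 5, differed least between the lines.

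The series relates the transcriptomes of tumour lines to the electrical effects of brain metastases, and poly(A) RNA was sequenced from untreated cultures with a stranded kit. The lines were 482N1, labelled lung NSCLC (non-small-cell lung cancer), E0771-BrM, labelled triple negative breast cancer, and B16F10-BrM, labelled BRAF mutant melanoma. All 3 carry the genotype label WT, and BrM stands for brain metastatic. DMEM was the medium of 482N1 and B16F10-BrM, and RPMI 1640 with added hepes that of E0771-BrM, each with fetal bovine serum, penicillin/streptomycin and amphotericin B. Libraries A, B and C were made of each line, 3 in all, and no label tells whether they are separate cultures, so the SDs, SEs and p-values below may measure technical spread only. Since each tumour type is given by a single line, line, tumour type and, for E0771-BrM, medium cannot be told apart. Only E0771-BrM and B16F10-BrM bear BrM in their names, so where 482N1 is compared with them this label cannot be told apart from line either.

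In the lung, alveolar type 2 cells make surfactant, a film of phosphatidylcholine and small proteins that keeps the air spaces from collapsing. Lpcat1 remakes lysophosphatidylcholine into the saturated phosphatidylcholine of that film, Abca3 pumps phospholipid into the lamellar bodies where the film is stored, and Ctsh, a lysosomal protease, takes part in trimming the surfactant protein precursors. Foxa1 is a forkhead transcription factor that opens chromatin in endoderm and in mammary luminal cells, and Etv5 is an ETS factor that responds to fibroblast growth factor (FGF) and MAP kinase signalling and maintains type 2 cells in the mouse.

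The promoters of the members were matched in RefSeq (build GRCm38.p6), where 4 of the 5 genes had entries, with 5 windows of 300 bases each, 250 before and 50 after the start. The deposited counts hold no coordinates, and the submitters' processing notes name GRCm39, so the positions are those of RefSeq and not of the files. The 3 windows shown are those of the regulators Foxa1 and Etv5, which hold the only matches to the motifs searched, and that of Abca3, which holds none and whose RNA had another order of lines. Capitals mark a forkhead A motif, TGTTTAC, found on the opposite strand and so read GTAAACA. Each sequence is written 5′ to 3′ on the strand of the gene.
Foxa1 (chr12:57546062-57546361, minus strand): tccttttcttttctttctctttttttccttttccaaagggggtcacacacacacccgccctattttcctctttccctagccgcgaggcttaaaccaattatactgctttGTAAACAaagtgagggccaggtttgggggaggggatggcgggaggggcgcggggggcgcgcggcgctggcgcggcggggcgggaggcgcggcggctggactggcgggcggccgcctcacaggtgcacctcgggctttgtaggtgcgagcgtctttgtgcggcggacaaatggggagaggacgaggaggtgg
Etv5 (chr16:22439521-22439820, minus strand): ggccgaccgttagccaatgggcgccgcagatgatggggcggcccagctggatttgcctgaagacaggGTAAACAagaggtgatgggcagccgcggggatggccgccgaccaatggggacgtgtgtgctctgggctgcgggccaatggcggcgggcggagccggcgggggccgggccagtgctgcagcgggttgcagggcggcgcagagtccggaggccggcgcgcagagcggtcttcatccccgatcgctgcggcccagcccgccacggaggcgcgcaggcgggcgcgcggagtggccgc
Abca3 (chr17:24351773-24352072, plus strand): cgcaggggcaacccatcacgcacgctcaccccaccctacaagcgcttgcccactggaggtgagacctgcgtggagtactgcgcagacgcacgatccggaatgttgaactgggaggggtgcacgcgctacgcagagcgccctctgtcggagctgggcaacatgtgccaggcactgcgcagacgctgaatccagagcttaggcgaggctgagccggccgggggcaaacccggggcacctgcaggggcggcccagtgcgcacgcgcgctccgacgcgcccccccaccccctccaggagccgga
The match lay 141 bases before the start in Foxa1 and 183 bases before it in Etv5. Both strands of the 5 windows were searched for 4 motifs: TGTTTAC, the forkhead variant TGTTTGC, the NKX2-1 motif CTCAAG and the ETS motif CCGGAAG. Of 32851 RefSeq promoter windows of this length, 3.65% held TGTTTAC, 5.065% TGTTTGC, 15.9% CTCAAG and 8.858% CCGGAAG on either strand. The second Etv5 window and the window of Lpcat1 (chr13:73466981-73467280, plus strand) held none of the 4, and no match overlapped another. A match describes these letters only and is not shown to be a bound site.

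The libraries held 7332390 to 9293348 counts, and levels are given as CPM (counts scaled to a common library size) with factors from the trimmed mean of M values, with the SD of 3 libraries. The epithelial keratin Krt18 had 4180 ± 223 CPM in 482N1, 0.376 ± 0.374 CPM in E0771-BrM and no count in B16F10-BrM, and Krt8 had 3512 ± 132, 188 ± 18.7 and, from 2 counts, 0.0807 ± 0.0700 CPM. The pigment cell gene Dct had 142, 14 and 148 counts in libraries A, B and C of 482N1 and 353, 29 and 263 counts in those of E0771-BrM, and averaged 17215 ± 425 CPM in B16F10-BrM. Libraries A and C of 482N1 and of E0771-BrM thus stand apart from library B of their lines, with 0.106% to 0.260% of the B16F10-BrM level of Dct against 0.00979% and 0.0202% in library B. Each member is therefore also given with library B alone of these lines. Rn18s, a ribosomal RNA, took 12.3% of counts in 482N1, 7.45% in E0771-BrM and 7.26% in B16F10-BrM, and removing it and 2 mitochondrial ribosomal RNA genes changed no member's call.

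Foxa1 was the member with the least spread in 482N1. It had 40.2, 40.3 and 40.4 CPM in libraries A, B and C of 482N1, 2.79, 2.64 and 1.75 CPM in those of E0771-BrM, and 0.625, 0.627 and 0.350 CPM in those of B16F10-BrM. The 3 lines did not overlap, with 482N1 far above the others and B16F10-BrM at 3 to 6 counts a library. The SD in 482N1 was 0.240% of the mean, below the 5.57% that counting error alone gives for 312 to 335 counts. Foxa1 averaged 40.3 ± 0.0966 CPM in 482N1 and 0.534 ± 0.160 CPM in B16F10-BrM, and its log2 fold change was 6.20 ± 0.24 (SE, edgeR adjusted p = 6.12e-28). Against the 2.39 ± 0.565 CPM of E0771-BrM the difference was 4.07 ± 0.19 (edgeR adjusted p = 1.15e-24), and E0771-BrM was above B16F10-BrM by 2.13 ± 0.38 (edgeR adjusted p = 3.14e-06). With library B alone of 482N1 and of E0771-BrM these log2 fold changes were 6.20, 3.93 and 2.27, and all 3 calls held. RNA of bulk cultures does not tell fewer expressing cells from less RNA per cell, here or for any gene below.

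Etv5, the second regulator, set B16F10-BrM apart from both other lines. Its levels were 53.1, 42.8 and 46.0 CPM in 482N1, 32.1, 29.6 and 30.7 CPM in E0771-BrM, and 2.92, 3.39 and 1.98 CPM in B16F10-BrM. No library of one line overlapped those of another, but the gap between 482N1 and E0771-BrM was small beside that to B16F10-BrM. Etv5 averaged 47.3 ± 5.27 CPM in 482N1 and 2.76 ± 0.716 CPM in B16F10-BrM, and its log2 fold change was 4.09 ± 0.17 (edgeR adjusted p = 2.96e-27). Between E0771-BrM, at 30.8 ± 1.24 CPM, and B16F10-BrM it was 3.48 ± 0.17 (edgeR adjusted p = 1.59e-23). Between 482N1 and E0771-BrM it was 0.62 ± 0.12, or 1.54-fold (edgeR adjusted p = 6.13e-06), and 41.0% of all genes tested had a smaller difference between these lines. With library B alone of 482N1 and of E0771-BrM the 3 values were 3.95, 3.42 and 0.53, the last with an edgeR adjusted p = 0.0347 (range over 20 alternatives 2.98e-06 to 1).

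**Figure D1:**
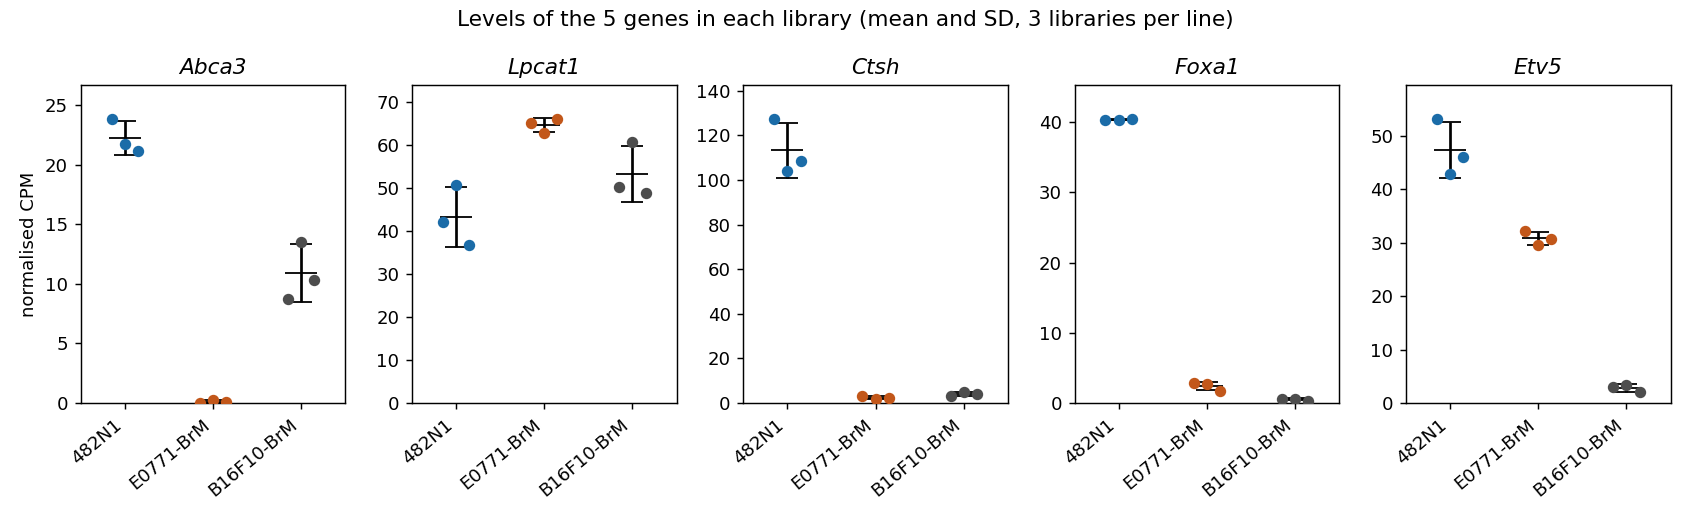
Levels of Abca3, Lpcat1, Ctsh, Foxa1 and Etv5 in each library, in normalised CPM on a linear axis that starts at 0, with 482N1, E0771-BrM and B16F10-BrM from left to right. Points are libraries and bars the mean and SD of 3. Foxa1 stood at 40.2 to 40.4 CPM in 482N1 and at or under 2.79 CPM elsewhere, while the Lpcat1 points of 482N1 (36.8 to 50.7 CPM) and of B16F10-BrM (48.9 to 60.7 CPM) overlapped.

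Abca3, the lamellar body transporter, had 3 counts over the libraries of E0771-BrM and was readily measured in the other lines. Levels were 23.9, 21.8 and 21.2 CPM in 482N1, from 185, 181 and 167 counts, 0, 0.240 and 0.125 CPM in E0771-BrM, from 0, 2 and 1 counts, and 8.75, 13.5 and 10.4 CPM in B16F10-BrM, from 84, 108 and 89 counts. The lines did not overlap, and the melanoma line held 48.9% of the mean level of the lung line. The log2 fold change between 482N1, at 22.3 ± 1.41 CPM, and B16F10-BrM, at 10.9 ± 2.44 CPM, was 1.04 ± 0.17 (edgeR adjusted p = 4.11e-07). For E0771-BrM, with 3 counts in all, the ratio of 482N1 to it, scaled for library size, was 180 (95% counting interval 61.2 to 875), and the ratio of B16F10-BrM to it was 86.8 (29.4 to 423). The fitted log2 fold changes were 7.33 ± 0.36 for 482N1 over E0771-BrM (edgeR adjusted p = 1.99e-23) and -6.29 ± 0.41 for E0771-BrM over B16F10-BrM (edgeR adjusted p = 7.49e-19). With library B alone of 482N1 and of E0771-BrM they were 6.42 and -5.41, and the value for 482N1 over B16F10-BrM was 1.01. In GENCODE M21 (GRCm38) 914 exon bases of Abca3 are shared with the antisense gene D330041H03Rik, and whether counting used strand is not given in the sources used here, so reads of the pair may not be told apart.

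Ctsh, the protease, did not pass 5.02 CPM in any library outside 482N1. The libraries of 482N1 had 127, 104 and 108 CPM, those of E0771-BrM 3.17, 1.92 and 2.24 CPM, and those of B16F10-BrM 3.23, 5.02 and 3.96 CPM. No 482N1 library came near the rest, whereas E0771-BrM and B16F10-BrM all but met, since the highest library of E0771-BrM had 3.17 CPM and the lowest of B16F10-BrM 3.23 CPM. From means of 113 ± 12.3 CPM in 482N1 and 4.07 ± 0.900 CPM in B16F10-BrM the log2 fold change was 4.81 ± 0.15 (edgeR adjusted p = 1.83e-32), and against the 2.45 ± 0.650 CPM of E0771-BrM it was 5.53 ± 0.16 (edgeR adjusted p = 4.24e-33). With library B alone of 482N1 and of E0771-BrM these were 4.69 and 5.75. For E0771-BrM over B16F10-BrM it was -0.72 ± 0.25 (edgeR adjusted p = 0.00861). That last call was lost without library B of B16F10-BrM (-0.55, edgeR adjusted p = 0.0663) and without library B of E0771-BrM (-0.57, edgeR adjusted p = 0.0583), and was kept with library B alone of 482N1 and of E0771-BrM (-1.06, edgeR adjusted p = 0.0120), within a range of 0.00319 to 1 over 20 alternatives.

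Lpcat1, the acyltransferase, was the only member whose lowest mean was that of 482N1. It had 42.2, 50.7 and 36.8 CPM in 482N1, 65.2, 62.7 and 66.1 CPM in E0771-BrM, and 50.2, 60.7 and 48.9 CPM in B16F10-BrM. E0771-BrM lay above both other lines without overlap, and 482N1 and B16F10-BrM overlapped. The mean of 482N1, 43.2 ± 7.01 CPM, was below the 64.7 ± 1.73 CPM of E0771-BrM with a log2 fold change of -0.58 ± 0.11 (SE, edgeR adjusted p = 3.34e-06) and below the 53.3 ± 6.47 CPM of B16F10-BrM with one of -0.30 ± 0.11 (edgeR adjusted p = 0.0103), and E0771-BrM was above B16F10-BrM by 0.28 ± 0.10 (edgeR adjusted p = 0.0132). Leaving out library C of 482N1 ended the call for 482N1 over B16F10-BrM (-0.19, edgeR adjusted p = 0.112), as did leaving out library B of B16F10-BrM (-0.20, edgeR adjusted p = 0.119). The call for E0771-BrM over B16F10-BrM ended without library A of B16F10-BrM (0.24, edgeR adjusted p = 0.0635) and without its library C (0.23, edgeR adjusted p = 0.0721). With library B alone of 482N1 and of E0771-BrM none of the 3 calls was made (-0.07, -0.31 and 0.24, edgeR adjusted p = 0.659, 0.0977 and 0.110), and over 20 alternatives adjusted p ranged from 0.000573 to 1, from 1.14e-07 to 1 and from 0.00241 to 1.

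**Figure D2:**
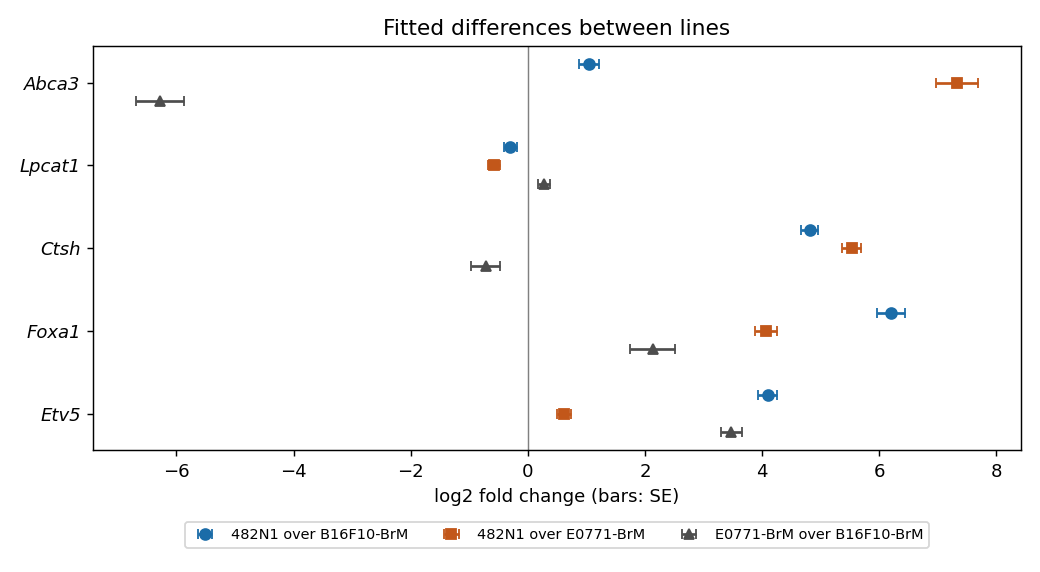
Fitted log2 fold changes of the 5 genes in the 3 comparisons, with bars for the SE. The values for 482N1 over B16F10-BrM and 482N1 over E0771-BrM lie right of 0 for Abca3, Ctsh, Foxa1 and Etv5 and left of 0 for Lpcat1 (-0.30 and -0.58), and Abca3 alone has a large negative value for E0771-BrM over B16F10-BrM (-6.29).

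Counted over the members, 4 were higher and 1 lower in 482N1 than in B16F10-BrM at an adjusted p below 0.05, with a median log2 fold change of 4.09. Of all genes tested, 77.8% were called in that comparison, 39.9% as higher and 38% as lower in 482N1, and the median was 0.04. For 482N1 over E0771-BrM 4 members were higher and 1 lower with a median of 4.07, against 78.1% of all genes called, 40.4% higher and 37.7% lower in 482N1, and a median of 0.04. For E0771-BrM over B16F10-BrM 3 were higher and 2 lower with a median of 0.28, against 73.7% called, 37.2% higher and 36.5% lower in E0771-BrM, and a median of 0.02. A call was therefore the usual state of a gene in this table, and size sets the members apart from each other more than the call does. The differences of Ctsh, Foxa1 and Etv5 between 482N1 and B16F10-BrM exceeded those of 94.6%, 96.2% and 93.5% of all genes, that of Abca3 60.9% and that of Lpcat1 21.2%. Tested against a 2-fold change, Ctsh, Foxa1 and Etv5 were called for 482N1 over B16F10-BrM, Abca3, Ctsh and Foxa1 for 482N1 over E0771-BrM, and Abca3, Foxa1 and Etv5 for E0771-BrM over B16F10-BrM.

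Per kilobase of exon the order of the members changed from line to line. In 482N1 Ctsh led with 25.2 CPM per kilobase, before Foxa1 (12.1), Etv5 (11.5), Lpcat1 (9.33) and Abca3 (2.38). In E0771-BrM Lpcat1 led with 14.0 CPM per kilobase, before Etv5 (7.51), Foxa1 (0.719), Ctsh (0.544) and Abca3 (0.0130). In B16F10-BrM Lpcat1 led with 11.5 CPM per kilobase, before Abca3 (1.16), Ctsh (0.905), Etv5 (0.673) and Foxa1 (0.160). The ranges of mean ± SD overlapped for Foxa1 and Etv5 and for Etv5 and Lpcat1 in 482N1, for Foxa1 and Ctsh in E0771-BrM, and for Abca3 and Ctsh and for Ctsh and Etv5 in B16F10-BrM, so these neighbours are not ordered beyond their spread. Abca3 in 482N1 was above only 31.7% of genes by level per kilobase, and Ctsh above 84.8%.

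Likeness was measured as the root mean square difference of centred log2 CPM over the 9 libraries, as a description. Among the members Ctsh and Foxa1 were the most alike (1.04) and Abca3 and Etv5 the least (3.48). The gene nearest to Abca3 was B4galt6, a glycosphingolipid galactosyltransferase (difference 0.264, where the median gene was at 2.70), with 71.3 ± 2.97 CPM in 482N1, 0.695 ± 0.333 in E0771-BrM and 38.2 ± 2.81 in B16F10-BrM, followed by Tom1l1 and Map2, both with no count in E0771-BrM. Nearest to Foxa1 was Nrarp, a Notch pathway gene (0.306), with 18.9 ± 1.44 CPM in 482N1, 0.908 ± 0.141 in E0771-BrM and none in B16F10-BrM, then Ptprb and S100a16. Ctsh was most like Cbr1, a carbonyl reductase (0.259), then Mageh1 and Bcl3. Cbr1 had 15.5 ± 1.08 CPM in 482N1, 0.126 ± 0.127 in E0771-BrM and 0.196 ± 0.0801 in B16F10-BrM, and Mageh1 had no count in E0771-BrM. The prior count of 2 narrows log2 differences at such low levels, so this likeness rests in part on it. Etv5 was most like Ecm1, an extracellular matrix protein gene (0.124), with 46.5 ± 4.24 CPM in 482N1, 27.7 ± 2.73 in E0771-BrM and 2.45 ± 0.302 in B16F10-BrM, then Unc5b and Ptpre. For Lpcat1, Ptpn1, Kdm2b and Zfp800 were nearest (0.0940 to 0.114), but the median gene was itself only 0.603 away, since Lpcat1 varied little.

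The labelled cell types were checked by their markers. Of 22 alveolar type 2 and surfactant markers 5 were in the table, 4 of them members. The surfactant protein genes Sftpa1, Sftpb, Sftpc and Sftpd were on this list but not in the table, so their levels are not known here. Nkx2-1 was not analysed here. The measured marker that is not a member, Rnase4, a secreted ribonuclease, had 18.7 ± 1.51 CPM in 482N1, 3.84 ± 0.232 in E0771-BrM and 1 count in B16F10-BrM. Of 14 alveolar type 1 markers 6 were measured. Of these 5 were higher in 482N1 than in B16F10-BrM and 5 higher than in E0771-BrM, none lower, with medians of 4.61 and 2.14. Of all genes tested 39.9% and 40.4% were called higher in these comparisons, and 38% and 37.7% lower. Every gene in the table had at least 8 counts in 3 libraries, so a marker could enter it through 1 line alone. Markers outside the table are not in these counts. The membrane protein gene Emp2 had 104 ± 7.37 CPM in 482N1, 46.3 ± 0.761 in E0771-BrM and no count in B16F10-BrM, and was at least 903-fold higher in 482N1 than there, and Gprc5a, an orphan receptor gene, had 92.5 ± 1.64, 37.3 ± 3.59 and no count. Sema3e, a guidance ligand, had 68.8 ± 6.87 CPM in 482N1, 1 count in E0771-BrM and 2.77 ± 0.371 CPM in B16F10-BrM. Cav1, with 51.5 ± 3.90 CPM in 482N1 and 58.1 ± 1.13 in E0771-BrM, was not called between these lines. Rtkn2, with 10.1 ± 1.60 CPM in 482N1 and 8.30 ± 0.786 in B16F10-BrM, was not called between those. The 2 airway markers measured of 20, the ciliogenesis factors Rfx2 and Rfx3, were both lower in 482N1 than in B16F10-BrM (log2 fold changes -1.97 ± 0.37 and -1.07 ± 0.17, edgeR adjusted p = 5.11e-06 and 2.97e-07). Mammary epithelium markers, 7 of 19 measured and Foxa1 among them, summed to 7450 to 8057 CPM in 482N1, 225 to 268 in E0771-BrM and 16.1 to 21.4 in B16F10-BrM. Krt8 and Krt18 made up most of the sum in 482N1 and Krt8 most of that in E0771-BrM, while in B16F10-BrM Krt18 and Areg were at 0 and Erbb3, a growth factor receptor gene, had 14.8 ± 3.65 CPM. The line labelled as breast cancer thus held less RNA of the measured mammary markers than the line labelled as lung cancer. Melanocyte markers, 5 of 16 measured, summed to 2.77 to 28.1 CPM in 482N1, 103 to 162 in E0771-BrM and 24630 to 25484 in B16F10-BrM. The part of epithelial content in the differences of Foxa1 and Ctsh was not tested. E0771-BrM held 5.35% of the 482N1 level of Krt8 and 0.00900% of that of Krt18. It held 5.93% of the 482N1 level of Foxa1, 2.16% of that of Ctsh and 65.1% of that of Etv5. Of 16 general epithelium markers 3 were measured, and all 3 were higher in 482N1 than in B16F10-BrM. Krt8 and Krt18 were higher and Pkp3 lower in 482N1 than in E0771-BrM. Pkp3 had 2.73 ± 0.965 CPM in 482N1 and 42.1 ± 2.62 CPM in E0771-BrM.

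Foxa1 belongs with the transcription factors that pattern lung endoderm, of which 13 of 31 were measured, Etv5 among them. Of these 11 were higher and none lower in 482N1 than in B16F10-BrM (median 2.79), and 12 were higher and none lower in 482N1 than in E0771-BrM (median 1.46). For E0771-BrM over B16F10-BrM 8 were higher and 3 lower (median 0.83). Of all genes tested, 39.9%, 40.4% and 37.2% were called higher in these 3 comparisons and 38%, 37.7% and 36.5% lower. A gene could enter the table through 1 line alone, here and in the lists below. The list was also written with earlier results of these data known, so these counts only describe the measured factors. Id2 had 365 ± 26.4 CPM in 482N1, 304 ± 13.5 in E0771-BrM and 368 ± 28.7 in B16F10-BrM. Nfib had 179 ± 4.91, 65.3 ± 7.74 and 198 ± 5.83 CPM, and neither was called between 482N1 and B16F10-BrM. Klf5, a zinc finger factor of airway and alveolar epithelium, had 514 ± 34.3 CPM in 482N1, 26.4 ± 2.96 in E0771-BrM and 0.607 ± 0.406 in B16F10-BrM, so its order of lines was that of Foxa1. Sox9, a factor of the lung bud tip, had 645 ± 36.2 CPM in 482N1, 53.1 ± 7.26 in E0771-BrM and 29.8 ± 1.17 in B16F10-BrM. The chromatin protein gene Hmga2 had 1771 ± 154 CPM in 482N1, 396 ± 23.0 in E0771-BrM and 67.7 ± 3.55 in B16F10-BrM. Sox4 had the order of Abca3 instead, with 999.9 ± 8.01 CPM in 482N1, 0.376 ± 0.257 in E0771-BrM, from 9 counts, and 149 ± 9.99 in B16F10-BrM. Upper-quartile scaling gave 1 lower gene in 482N1 in each of these comparisons with it, limma-voom and a fit to the 2 lines alone gave 1 for 482N1 over E0771-BrM, and against a 2-fold change 7 genes were higher in 482N1 than in E0771-BrM.

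**Figure D3:**
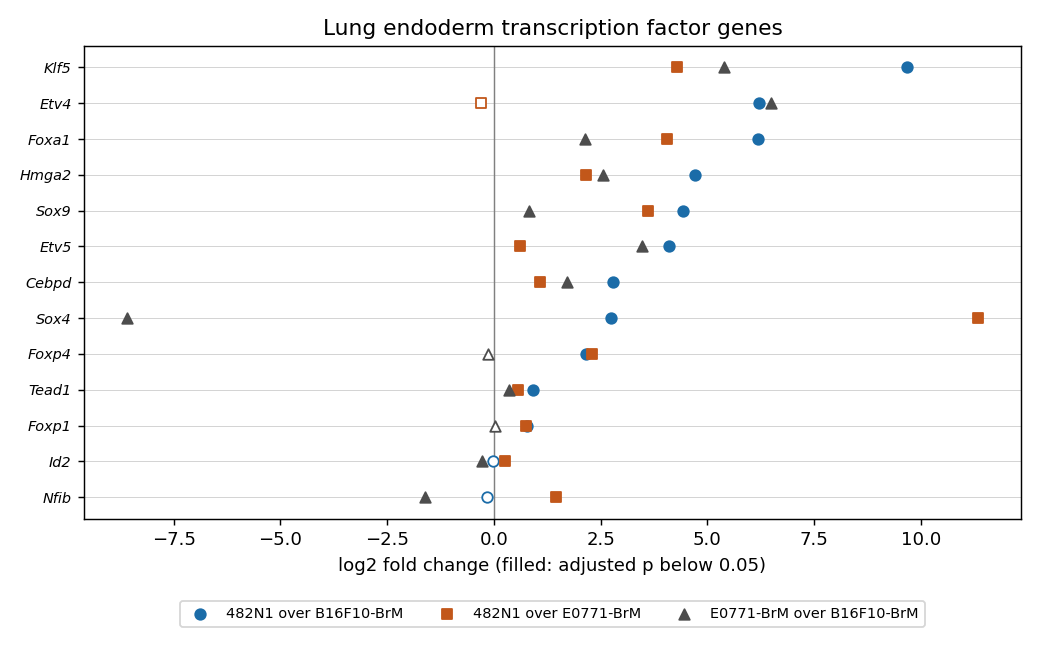
Log2 fold changes of the 13 measured lung endoderm transcription factor genes, filled where the edgeR adjusted p was below 0.05, ordered by 482N1 over B16F10-BrM. Klf5 is at the top with 9.68 for 482N1 over B16F10-BrM, and Sox4 has the widest span, with 11.34 for 482N1 over E0771-BrM and -8.59 for E0771-BrM over B16F10-BrM.

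Etv5 was set beside its relatives and the FGF and MAP kinase genes around it. Of its 3-member PEA3 group, Etv4 had 18 ± 1.22 CPM in 482N1, 22.1 ± 1.64 in E0771-BrM and 0.234 ± 0.132 in B16F10-BrM, so that it too was low in B16F10-BrM alone, with log2 fold changes of 6.20 ± 0.31 for 482N1 over B16F10-BrM (edgeR adjusted p = 1.67e-23) and -0.30 ± 0.15 for 482N1 over E0771-BrM (edgeR adjusted p = 0.0597). With upper-quartile factors, limma-voom or a fit to the 2 lines alone, Etv4 was called lower in 482N1 than in E0771-BrM. Etv1 was high in E0771-BrM alone, with 1.60 ± 0.571 CPM in 482N1, 89.4 ± 4.27 in E0771-BrM and 5.57 ± 1.79 in B16F10-BrM, and was lower in 482N1 than in B16F10-BrM by -1.80 ± 0.27 (edgeR adjusted p = 5.48e-08). Per kilobase of exon Etv5 led the group in 482N1 (11.5 CPM per kilobase, with Etv4 at 5.79 and Etv1 at 0.120), and Etv5, Etv4 and Etv1 stood at 7.51, 7.13 and 6.72 in E0771-BrM and at 0.673, 0.0753 and 0.419 in B16F10-BrM.

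In the wider FGF and MAP kinase list, 25 of 39 genes were measured. In 482N1 18 were higher and 4 lower than in B16F10-BrM (median 1.58), and 17 higher and 4 lower than in E0771-BrM (median 0.50), of which 6 were higher against a 2-fold change. In E0771-BrM 15 were higher and 4 lower than in B16F10-BrM (median 0.96). Over all genes tested the shares called higher in these 3 comparisons were 39.9%, 40.4% and 37.2%, and lower 38%, 37.7% and 36.5%. The receptor gene Fgfr1 did not have the order of Etv5, with 1.21 ± 0.0537 CPM in 482N1, 44.0 ± 2.09 in E0771-BrM and 1 count in B16F10-BrM. The ERK phosphatase gene Dusp5 did, with 89.6 ± 10.9 CPM in 482N1, 49.4 ± 5.26 in E0771-BrM and 1 count in B16F10-BrM, and Dusp6, another ERK phosphatase gene, had 290 ± 14.1, 92.7 ± 13.3 and 46.3 ± 4.93 CPM. Among the feedback inhibitors, Spry2 had 73.4 ± 8.36 CPM in 482N1, 17.3 ± 2.47 in E0771-BrM and 14.1 ± 0.778 in B16F10-BrM, and Spry4 had 6.29 ± 1.01, 15.2 ± 2.99 and 0.460 ± 0.310 CPM. The FGF receptor partner gene Flrt3 had 89.3 ± 7.26 CPM in 482N1, 7.78 ± 2.27 in E0771-BrM and 3.18 ± 0.583 in B16F10-BrM. Cic, which encodes a repressor of the PEA3 genes, had 78.6 ± 11.3 CPM in 482N1, 18.5 ± 1.38 in E0771-BrM and 27.4 ± 4.05 in B16F10-BrM. These are RNA levels, and a part of Cic in the level of Etv5 was not tested.

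**Figure D4:**
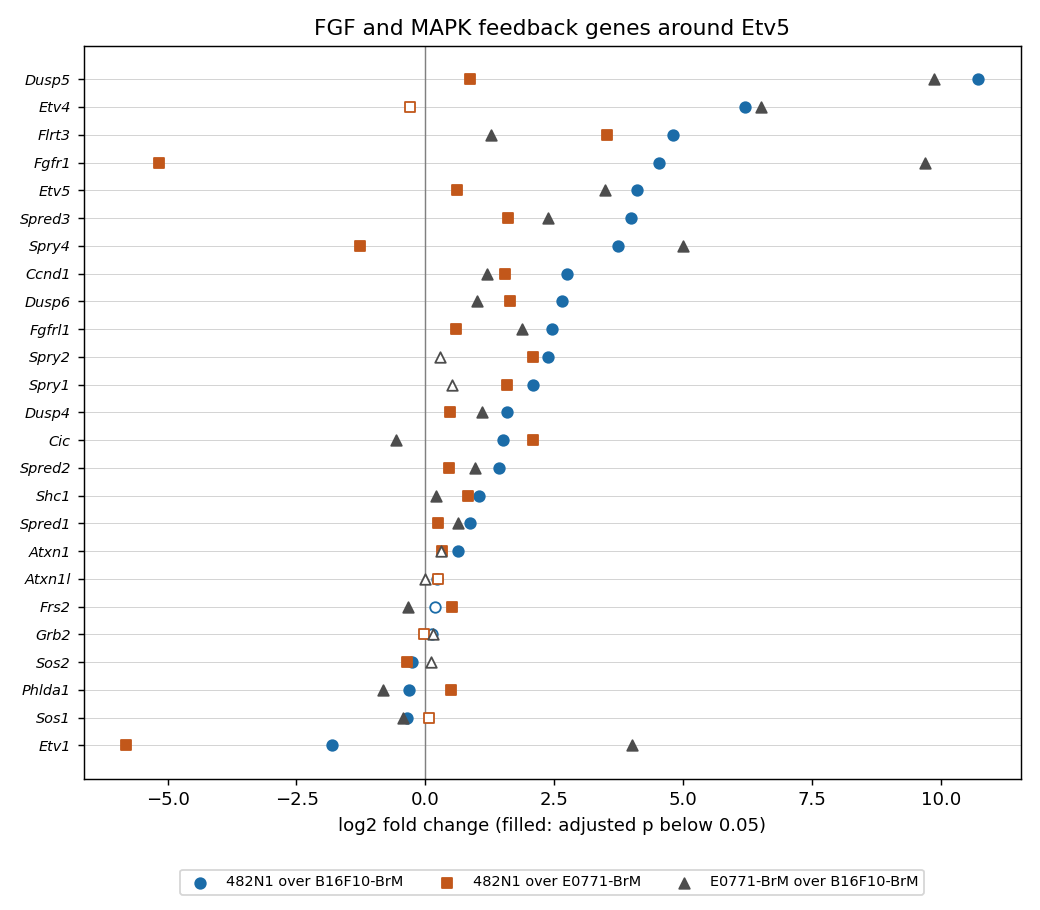
Log2 fold changes of the 25 measured FGF and MAP kinase genes, filled where the edgeR adjusted p was below 0.05 and ordered by 482N1 over B16F10-BrM. Dusp5, drawn at the top, had 1 count in B16F10-BrM, so its place there rests on the fit, Etv1 is at the bottom (-1.80), and Fgfr1 and Etv1 lie far to the left for 482N1 over E0771-BrM (-5.17 and -5.80).

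Around Lpcat1, 34 of 36 genes of phosphatidylcholine synthesis and remodelling were measured and went both ways. In 482N1 19 were higher and 12 lower than in B16F10-BrM (median 0.36) and 20 higher and 10 lower than in E0771-BrM (median 0.41). In E0771-BrM 18 were higher and 11 lower than in B16F10-BrM (median 0.31). Calls of all genes in these 3 comparisons were 39.9%, 40.4% and 37.2% higher and 38%, 37.7% and 36.5% lower. The phosphatidylcholine transfer protein gene Stard10 had 506 ± 18.7 CPM in 482N1, 19.8 ± 2.63 in E0771-BrM and 0.822 ± 0.304 in B16F10-BrM, and 482N1 was above B16F10-BrM by 9.27 ± 0.15 on the log2 scale (edgeR adjusted p = 6.52e-44). Pctp, another phosphatidylcholine carrier gene, had 7.07 ± 1.28 CPM in 482N1, no count in E0771-BrM and 14.8 ± 1.24 CPM in B16F10-BrM, at least 57.3-fold higher in 482N1 than in E0771-BrM. Pcyt1b, which encodes a CTP:phosphocholine enzyme of the Kennedy pathway, was low in B16F10-BrM alone, with 48.0 ± 4.88 CPM in 482N1, 45.4 ± 1.94 in E0771-BrM and 3.08 ± 0.499 in B16F10-BrM, and was not called between 482N1 and E0771-BrM. Its paralog Pcyt1a had 30.6 ± 1.34, 55.6 ± 3.53 and 68.9 ± 3.89 CPM.

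Lpcat2 and Mboat2, acyltransferase genes of the remodelling step, had log2 fold changes of greater size than Lpcat1 for 482N1 over B16F10-BrM (-2.39 ± 0.31 and -1.71 ± 0.12). Lpcat2 had 1.42 ± 0.425 CPM in 482N1, 1 count in E0771-BrM and 7.52 ± 1.10 CPM in B16F10-BrM, and Mboat2 had 18.9 ± 2.66, 0.459 ± 0.372 and 62.0 ± 0.545 CPM, so that both were highest in B16F10-BrM. Lpcat3, another of these acyltransferase genes, had 74.1 ± 6.16 CPM in 482N1, 61.5 ± 1.72 in E0771-BrM and 66.2 ± 5.71 in B16F10-BrM. Gpat3, which starts glycerolipid synthesis, had 1.62 ± 0.896 CPM in 482N1, 17.7 ± 1.69 in E0771-BrM and no count in B16F10-BrM.

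**Figure D5:**
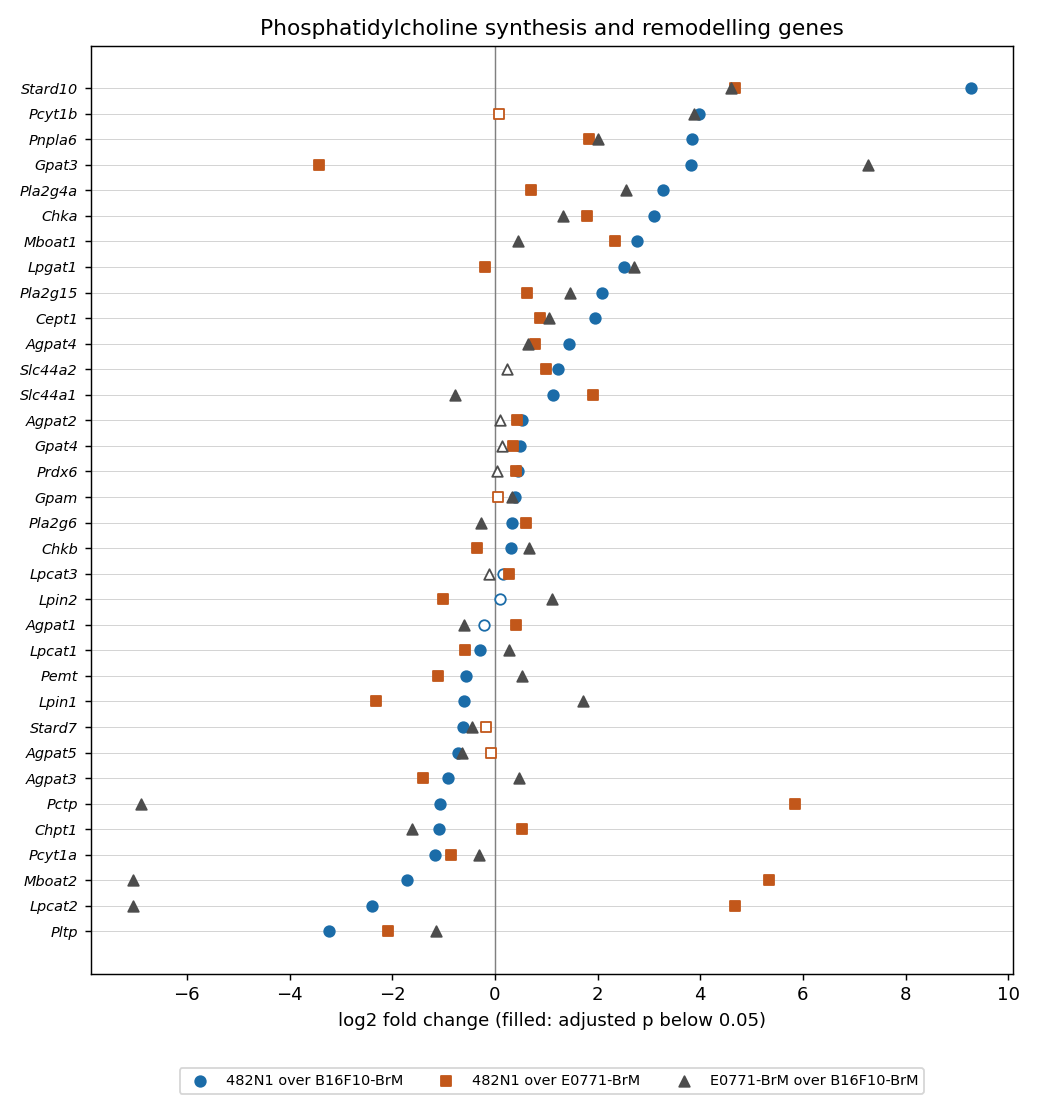
Log2 fold changes of the 34 measured phosphatidylcholine genes, filled where the edgeR adjusted p was below 0.05, with genes at 0 in a line drawn at the bound that 3 counts allow. Lpcat1 lies near 0 in all 3 comparisons (-0.30, -0.58 and 0.28), Stard10 is at the top (9.27) and Pctp and Mboat2 lie far to the left for E0771-BrM over B16F10-BrM.

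Beside Abca3, 4 further ABCA lipid transporter genes of 16 in the list were measured. With Abca3, 3 were higher and none lower in 482N1 than in B16F10-BrM (median 0.72) and than in E0771-BrM (median 5.56). In E0771-BrM 1 was higher and 3 lower than in B16F10-BrM (median -2.53). Shares of all genes called higher were 39.9%, 40.4% and 37.2% in these 3 comparisons, and lower 38%, 37.7% and 36.5%. Without library C of B16F10-BrM 1 gene was lower in 482N1 than in B16F10-BrM, and without library A of E0771-BrM none was higher in E0771-BrM than in B16F10-BrM. Abca1, the cholesterol exporter, was also near absent from E0771-BrM, with 3.97 ± 0.106 CPM in 482N1, 1 count in E0771-BrM and 4.31 ± 0.153 CPM in B16F10-BrM. Abca5, a lysosomal member, had 22.2 ± 5.95 CPM in 482N1, 0.456 ± 0.155 in E0771-BrM and 2.67 ± 0.790 in B16F10-BrM. Abca7 had 12.1 ± 1.51, 10.8 ± 1.92 and 7.32 ± 0.924 CPM, and Abca2 was not called in any comparison.

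Of cathepsins and their inhibitors 13 of 24 genes were measured, and they went both ways. In 482N1 7 were higher and 4 lower than in B16F10-BrM (median 0.39), and 5 higher and 5 lower than in E0771-BrM (median 0.07). In E0771-BrM 5 were higher and 6 lower than in B16F10-BrM (median -0.16). The shares over all genes tested were 39.9%, 40.4% and 37.2% higher and 38%, 37.7% and 36.5% lower, in that order. Ctsb, a broad lysosomal cysteine protease gene, was lowest in 482N1, with 126 ± 5.52 CPM there, 441 ± 6.95 in E0771-BrM and 290 ± 8.47 in B16F10-BrM. Ctsl had 231 ± 5.23 CPM in 482N1, 451 ± 39.7 in E0771-BrM and 94.3 ± 4.58 in B16F10-BrM. Ctsc, the dipeptidyl peptidase gene, had 34.7 ± 2.01 CPM in 482N1, no count in E0771-BrM and 25.1 ± 1.88 CPM in B16F10-BrM, at least 280-fold higher in 482N1 than in E0771-BrM. The inhibitor gene Cst6 had 10.5 ± 0.545 CPM in 482N1, 41.1 ± 2.28 in E0771-BrM and 41.7 ± 1.25 in B16F10-BrM.

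Lamellar bodies are built with machinery that melanosomes share, and 28 of 32 such genes were measured. In 482N1 9 were higher and 12 lower than in B16F10-BrM (median -0.18) and 9 higher and 12 lower than in E0771-BrM (median 0.02), and 8 were higher and 16 lower in E0771-BrM than in B16F10-BrM (median -0.50). Rab32, a small GTPase gene of pigment granules, had 5 counts in 482N1, 1 count in E0771-BrM and 22.4 ± 1.35 CPM in B16F10-BrM. Dtnbp1, a BLOC-1 subunit gene, had 14.0 ± 1.75 CPM in 482N1, 24.3 ± 2.36 in E0771-BrM and 148 ± 12.0 in B16F10-BrM, and Lyst, a regulator of lysosome size, had 10.2 ± 0.880, 34.9 ± 2.82 and 56.8 ± 5.20 CPM. Lrrk2, a kinase gene of lysosome-related organelles, was the opposite, with 13.5 ± 0.467 CPM in 482N1, 14.0 ± 2.42 in E0771-BrM and 2.38 ± 0.562 in B16F10-BrM. Both 482N1 comparisons had a median near 0. Calls of all genes were 39.9% higher and 38% lower in 482N1 than in B16F10-BrM and 40.4% higher and 37.7% lower than in E0771-BrM. In E0771-BrM 37.2% of all genes were called higher and 36.5% lower than in B16F10-BrM, with a median of 0.02.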

How the data were processed

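RNA of 9 libraries, 3 for each of 3 lines, was compared. The authors deposited raw read counts per gene symbol. Per the submitters' processing notes the build was GRCm39 and the tools were Cufflinks 2.2.1, SAMtools 0.1.19, Bowtie 1.0.0, TopHat2 2.0.10 and FastQC. The counting tool, its strand setting, the annotation and the choice of genes are not given in the sources used here, and every gene in the table had at least 8 counts in 3 libraries, so a gene outside the table is not read as unexpressed.

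Counts were fitted in R 4.3.3 with edgeR 4.0.16: filterByExpr removed 9 genes, libraries were scaled by TMM, and 1 coefficient per line was fitted to all 9 libraries (robust quasi-likelihood F test, 2-sided, common dispersion 0.00590). P-values were adjusted by the Benjamini-Hochberg method over 11037 genes with a threshold of 0.05. Positive log2 fold changes mean higher in the line named first. A gene at 0 in a line is given a bound from 3 counts over the line, and one with 1 to 3 counts its counts or a ratio with a 95% interval. Totals of 7332390 to 9293348 counts set this precision, and bounds and intervals cover counting error only. Exon lengths came from GENCODE M21 (98.3% of genes matched). The procedure was tested on simulated data.

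The members and the 15 gene lists were chosen with earlier results of these data known. Named genes were the members, from each list and comparison up to 4 called genes without overlap by absolute log2 fold change, the 3 genes nearest to each member (log2 CPM, prior count 2) and marker genes. The text prints a selection of these, and Dusp6, Cic, Pcyt1a, Lpcat3, Abca2 and Rn18s were added for their roles after their values were seen. Id2 and Nfib were added in the same way, as factors not called between 482N1 and B16F10-BrM. Alternatives were DESeq2 size factors, upper-quartile factors, DESeq2 1.42.0, limma-voom (limma 3.58.1), the library letter as a block, no filter or 1 CPM in 3 libraries, a fit to the 2 lines alone, each library left out, library B alone of 482N1 and of E0771-BrM (the lone libraries taken to vary like the rest), ribosomal RNA removed, and glmTreat against a 2-fold change. No list was tested as a set.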

Additional observations from a re-analysis of the deposited data

How the results depend on the processing

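Over 20 alternatives the members' log2 fold changes kept their sign in all 3 comparisons, and the calls of Ctsh and Lpcat1 that were lost without a library are given beside those genes. Against a 2-fold change, glmTreat called 3477 genes for 482N1 over B16F10-BrM, 3342 for 482N1 over E0771-BrM and 2905 for E0771-BrM over B16F10-BrM, where the test against no change called 8592, 8622 and 8131. It also left uncalled Abca3 for 482N1 over B16F10-BrM (adjusted p = 0.473, range over the alternatives 4.06e-08 to 0.473), Etv5 for 482N1 over E0771-BrM, Ctsh for E0771-BrM over B16F10-BrM and Lpcat1 in all 3 (adjusted p = 1), all of them near or under the 2-fold that test is set against. No scaling moved the median of all genes by 0.1. With the library letter as a replicate block, edgeR called 8595, 8623 and 8162 genes and the same 4 and 1, 4 and 1, and 3 and 2 members. Over 9 same-letter pairs of libraries the correlation of deviations was -0.00992 to 0.0898, 0 above 0.1, and over different-letter pairs -0.0752 to 0.0370. Dct counts were nonetheless lowest in library B of both 482N1 and E0771-BrM, so the letters were not free of shared structure. Of 1800 list counts under the alternatives, 53 moved by over 1.5 times. Depth limits Abca3 in E0771-BrM (3 counts) and Foxa1 in B16F10-BrM (14 counts).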

Other observations

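Markers of myeloid, endothelial and fibroblast cells, 6 of 19 measured, summed to 125 to 129 CPM in 482N1, 58.8 to 65.9 in E0771-BrM and 8.85 to 11.6 in B16F10-BrM. Most of the 482N1 sum was Flt1, a receptor for vascular growth factor, with 93.6 ± 6.97 CPM in 482N1, 6.17 ± 0.984 in E0771-BrM and 1 count in B16F10-BrM. Cd14, a co-receptor for bacterial lipopolysaccharide, had 27.2 ± 3.78 CPM in 482N1, 9.00 ± 0.801 in E0771-BrM and no count in B16F10-BrM. The markers went both ways, with 3 higher and 3 lower in 482N1 than in B16F10-BrM and 2 higher and 3 lower than in E0771-BrM. Of all genes tested 39.9% were higher and 38% lower, and 40.4% higher and 37.7% lower, in these comparisons. Cd68 had 2.51 ± 0.981 CPM in 482N1, 15.8 ± 2.00 in E0771-BrM and 0.570 ± 0.0626 in B16F10-BrM. Egfl7 had 2.89 ± 0.301, 30.0 ± 2.08 and 7.51 ± 1.46 CPM. Pdgfrb had no count and Col1a2 1 count in 482N1. The desmosome gene Pkp3 went against the keratins, with 2.73 ± 0.965 CPM in 482N1, 42.1 ± 2.62 in E0771-BrM and 1 count in B16F10-BrM.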
